A study of Mus musculus with 10 samples.

Results

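Genes that make, remove or sense reactive oxygen species were examined in hearts and cardiomyocytes of VAChT knockdown (KD) and wild-type (WT) mice. VAChT is the vesicular acetylcholine transporter that loads acetylcholine into secretory vesicles. The group held 41 listed genes, chosen by symbol from knowledge of the antioxidant and oxidase pathways, with earlier results of these data known. Of these, 39 had a probe set annotated with exactly 1 gene symbol, among 19938 genes measured in all, and for a gene with several the brightest on average was used. The peroxiredoxin genes Prdx5 and Prdx6 were not analysed here. Transcript levels came from Affymetrix arrays of ventricular cardiomyocytes (3 WT and 3 KD arrays) and of whole hearts (2 WT and 2 KD arrays). All mice were described as male, C57BL/6 and 3 months old, untreated, and either WT or VAChT KD, with the KD line written as VAChT KDHOM in the series title. Each array held RNA pooled from 2 RNA samples. How the knockdown was made, which cells carry it and how the cardiomyocytes were separated were not given in the sources used here. Beyond the pooling, the labels do not tie arrays to separate animals, so a p-value measures only the spread from array to array, which may be technical.

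Superoxide leaks from the respiratory chain or is made on purpose by NADPH oxidases, and superoxide dismutases turn it into hydrogen peroxide. Catalase, glutathione peroxidases and peroxiredoxins then remove the peroxide. Glutathione, thioredoxin and their reductases restore the glutathione peroxidases and peroxiredoxins at the cost of NADPH. Many of the genes are induced by the transcription factor Nrf2 (gene Nfe2l2), which Keap1 holds in check under resting conditions and which binds the antioxidant response element. Heart muscle has a dense mitochondrial network and depends on the mitochondrial enzymes Sod2 and Prdx3, while the phagocyte oxidase subunit Cybb is known mainly from macrophages and neutrophils.

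Because Nrf2 acts through a short sequence near its targets, the core of that element, TGACNNNGC, was looked for on both strands of the 300 bases from 250 before to 50 after each start site (RefSeq, GRCm38.p6). The 34 measured members with such a window included 8 with a match (23.5%), against 3781 of 27025 genes in the table (14%). A gene counted if any of its windows matched. The 34 members had 48 windows and the 27025 genes 32851, so the shares are not on equal numbers of windows per gene. Sod3, Gclc, Gsr, Gsta4 and Hmox1 had no window. The 8 were Sod1, Prdx1, Txnrd1, Srxn1, Gclm, Mgst1, Blvra and Nfe2l2. In Srxn1, whose product sulfiredoxin reactivates oxidised peroxiredoxins, the match lay downstream of the start site. The following stretches show the match in capitals for 3 genes of the peroxide, thioredoxin and glutathione systems. All are written on the plus strand, which is the strand of the gene, and the core reads in the opposite direction, so that the capitals are its reverse complement.
Prdx1, chr4:116685431-116685509: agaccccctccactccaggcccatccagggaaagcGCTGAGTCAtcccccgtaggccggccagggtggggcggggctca
Txnrd1, chr10:82859079-82859157: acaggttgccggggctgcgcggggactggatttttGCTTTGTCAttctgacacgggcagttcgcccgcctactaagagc
Gclm, chr3:122245388-122245466: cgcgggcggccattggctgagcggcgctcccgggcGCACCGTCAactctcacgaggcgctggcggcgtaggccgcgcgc
Read on the opposite strand the matches are TGACTCAGC in Prdx1, TGACAAAGC in Txnrd1 and TGACGGTGC in Gclm. That of Prdx1 also holds TGACTCA, the motif of the AP-1 factors, so those letters cannot be assigned to one factor family. A match is a description of the letters and not evidence that a factor binds there.

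The values were log2 intensities, on which a difference of 1 is a 2-fold difference. Array medians of the named genes lay between 6.19 and 6.27 in cardiomyocytes and between 7.54 and 7.59 in hearts, so the kinds of sample were compared only after rescaling. The correlation between replicates was 0.992 to 0.995 for cardiomyocytes and, for hearts, 0.993 among WT and 0.980 among KD arrays. Defining cardiomyocyte markers (10 of 10 measured) had a median rank at the 99.8th to 99.9th percentile in every array. Markers of fibroblasts (8 of 8 measured) had a median percentile of 57.1 to 64.7 in the cardiomyocyte arrays and of 91.0 to 94.7 in hearts, and those of macrophages (11 of 12 measured) 28.4 to 49.8 and 81.4 to 89.5. KD heart 1 stood apart from the other 3 heart arrays, with 7 thymocyte markers at a median of 3.20 above their WT mean, against 0.24 in KD heart 2. KD heart 2 stood apart in 5 atrial markers, at a median of -1.45 relative to their WT mean, against -0.24 to 0.03 in the other hearts. In cardiomyocytes that median ran from -0.58 to 0.40 in WT and from -0.45 to 0.22 in KD, and the atrial light chain Myl7 from 6.33 in WT 3 to 9.64 in WT 2. The part of atrial content in the members' values was not tested. Heart values are therefore given array by array.

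**Figure D1:**
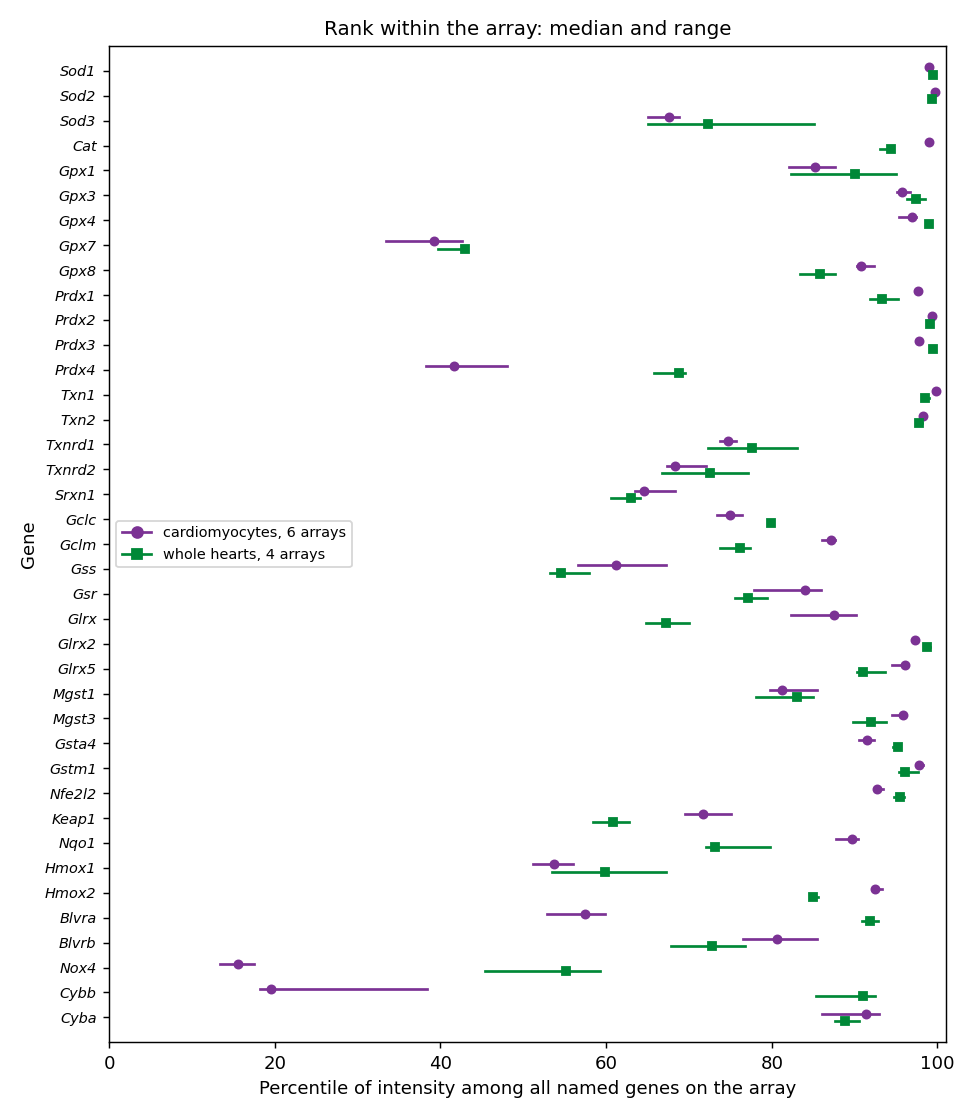
Rank of each gene's intensity among all named genes of the same array, as a percentile on the x axis, with the 39 genes on the y axis. Circles are medians of the 6 cardiomyocyte arrays and squares medians of the 4 heart arrays, and lines run from the lowest to the highest array. Cybb, Nox4, Blvra and Prdx4 ranked lower in cardiomyocytes than in hearts, with no overlap of the arrays. Ranks compare a gene with itself between kinds of sample and not genes with each other.

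Cardiomyocytes and whole hearts differed in many of these genes, among them the oxidase subunit Cybb and the reductase Blvra. After quantile normalization of all 10 arrays, limma called 18 of the 39 members higher in cardiomyocytes and 14 lower. Over all genes 71.2% were called, 36.7% higher and 34.6% lower. Calls that kept their direction under quantile normalization, under subtraction of array medians and on percentile ranks were 15 higher (38.5% of members, against 31.1% of all genes) and 5 lower (12.8%, against 24.7%). Subtraction of array medians called 6 members lower (31.3% of all genes) and percentile ranks 11 (33.9%), so the share lower depended on the scaling. A further 10 members turned direction among the scalings: Sod1, Gpx1, Gpx3, Txnrd1, Txnrd2, Gclc, Glrx2, Mgst1, Gsta4 and Nfe2l2. The labels name different labelling manuals for the cardiomyocyte and the heart RNA, so labelling and the kind of sample cannot be told apart. Nor, in bulk RNA, can fewer cells of a type be told apart from less RNA per cell.

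The 5 genes lower in cardiomyocytes were Cybb, the catalytic subunit of the phagocyte NADPH oxidase, Blvra and Nox4, and the peroxiredoxins Prdx3 and Prdx4. Cybb differed by -3.87 (SE 0.20; adjusted limma p 2.27e-08), with a median percentile of 19.5 in cardiomyocytes and 91.0 in hearts. Blvra, a biliverdin reductase of the heme breakdown pathway, differed by -2.42 (SE 0.08), with percentiles of 57.4 and 91.8. Nox4, an oxidase that releases hydrogen peroxide without cytosolic activator subunits, differed by -1.91 (SE 0.11), with percentiles of 15.6 and 55.2. In cardiomyocytes, Cybb and Nox4 thus ranked low, as did the neutrophil markers (17.0 to 19.8) and the thymocyte markers (16.5 to 20.4). Ranks do not measure genes against each other, so this is only a rough guide. Without detection calls Cybb and Nox4 are not shown to lie above background there, so their differences may be lower bounds. Their KD minus WT values in cardiomyocytes carry the same limit. Macrophage markers moved with Cybb between the kinds of sample: all 11 were lower in cardiomyocytes, with a median difference of -2.62. Other lists did so too, with 8 of 8 fibroblast (-2.35), 5 of 5 atrial (-1.77) and 5 of 5 T cell markers (-1.11) lower. Of the 10 cardiomyocyte markers 7 were higher (median 0.09). The part of any of these markers in the Cybb difference was not tested.

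Prdx4, the peroxiredoxin of the secretory pathway, differed by -1.26 (SE 0.09), with a median percentile of 41.7 in cardiomyocytes and 68.8 in hearts. Prdx3, the mitochondrial peroxiredoxin, differed by -1.32 (SE 0.06), though its percentile was high in both, at 97.8 and 99.4. These 5 genes were lower in cardiomyocytes in the deposited values as well, in which all genes shifted by a median of -1.21.

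The 15 genes higher in cardiomyocytes were led by Cat, the catalase gene, at 1.89 (SE 0.07; adjusted limma p 2.02e-09), and Txn1, cytosolic thioredoxin, at 1.74 (SE 0.09). Glrx, a cytosolic glutaredoxin, differed by 1.38 (SE 0.14), the quinone reductase gene Nqo1 by 1.17 (SE 0.10) and Prdx1, a cytosolic peroxiredoxin, by 1.10 (SE 0.09). The kept probe set of Prdx1 is listed among those of another chromosome than the gene's, a limit taken up with its heart values. The other 10 were Hmox2, Gclm, Glrx5, Mgst3, Keap1, Gpx8, Blvrb, Gstm1, Gsr and Gss, between 0.31 and 0.86. In the deposited values, 10 of the 15 stayed above 0, and Gpx8, Gss, Gsr, Keap1 and Blvrb lay below it.

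Sod2 was called higher in cardiomyocytes by 0.58 (SE 0.06) after quantile normalization, but not on percentile ranks, where its medians of 99.7 and 99.4 lay against the top of the scale. Sod1, the cytosolic dismutase, differed by -0.53 (SE 0.06) after quantile normalization and by 0.52 after subtraction of array medians, so its direction is not settled. Gpx4, the glutathione peroxidase that reduces lipid peroxides, differed by -1.18 (SE 0.11), a call not made after subtraction of array medians (-0.19).

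**Figure D2:**
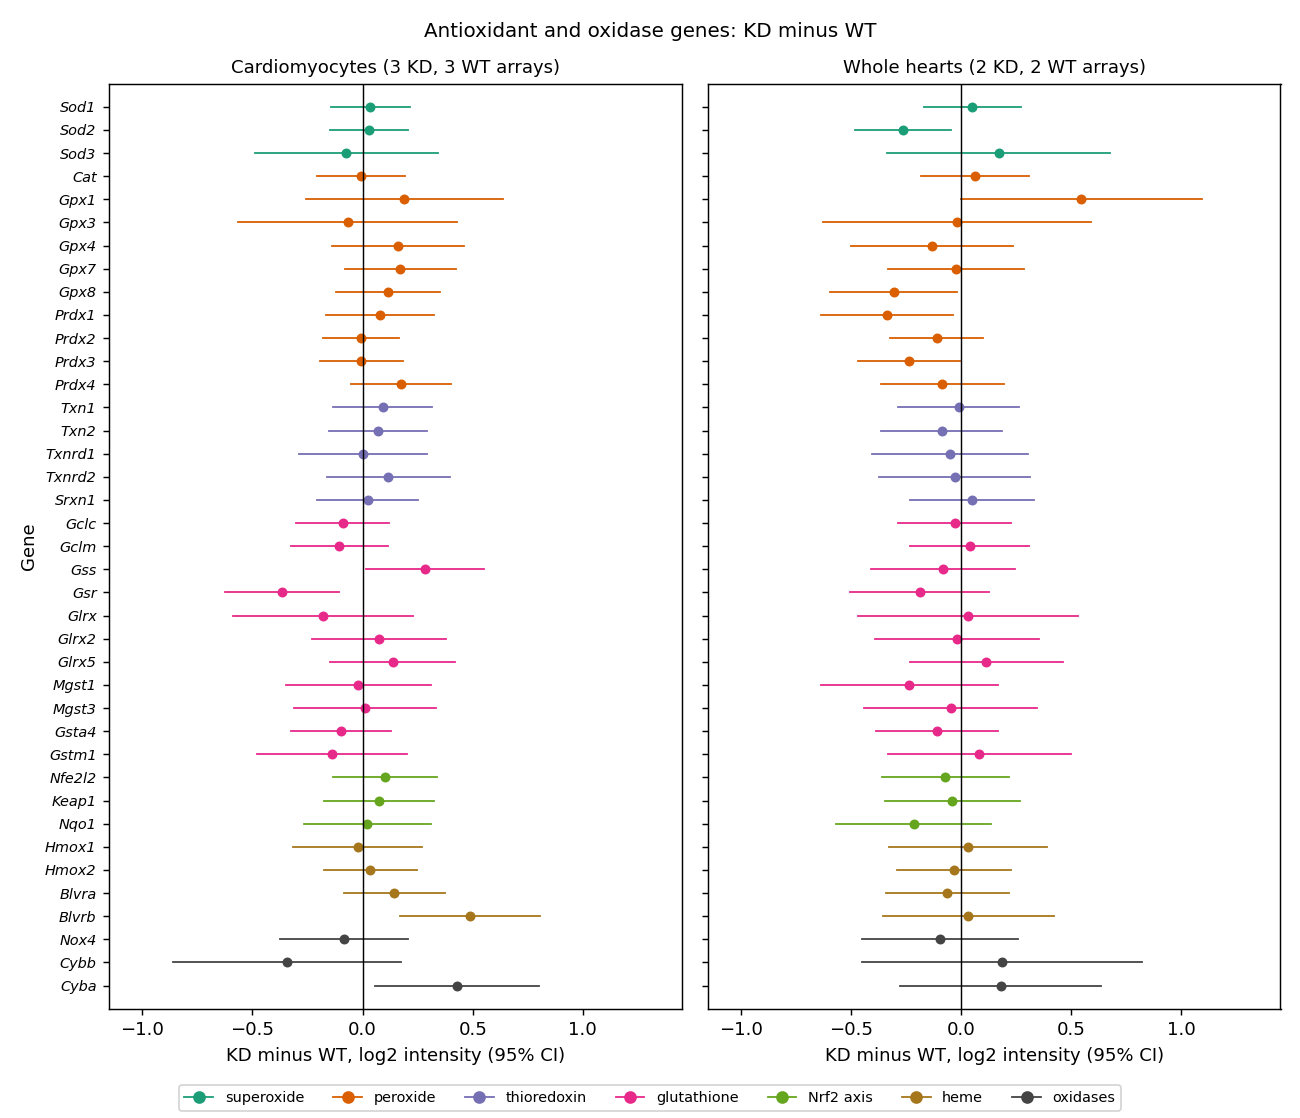
KD minus WT difference in log2 intensity (x axis) with its 95% confidence interval from limma for the 39 genes (y axis, coloured by system), in cardiomyocytes on the left and whole hearts on the right. The interval held 0 in 35 of 39 genes on each side. Blvrb, Cyba and Gss lay to the right of 0 and Gsr to the left in cardiomyocytes, and Sod2, Prdx1, Gpx8 and Prdx3 to the left in hearts, none of them past the adjusted threshold.

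In cardiomyocytes, none of the antioxidant and oxidase genes passed the test between KD and WT. The gene with the smallest p was Blvrb, a biliverdin and flavin reductase, whose mean was 1.40-fold higher in KD, and Gsr, which regenerates reduced glutathione, had a mean 1.29-fold lower. Limma called 0 of 39 members at an adjusted p under 0.05, as it called 0% of all genes, and every member had an adjusted p of 1. Below an unadjusted p of 0.05 lay 3 members higher (0.988% of all genes) and 1 lower (1.11%). The KD and WT arrays did not overlap in 1 member higher (2.99% of all genes) and 1 lower (3.21%), in all 5.13% of members against 6.21% of all genes. Differences ran from -0.37 to 0.49 with 24 members above 0 and 15 below (50% of all genes each), a median of 0.03 against -8.2e-05 over all genes, and 22 members differed by less than 0.1. The median 95% confidence interval of a member reached 0.26 to either side, which is 1.20-fold, and the interval lay within 1.5-fold of no difference for 33 of the 39.

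Blvrb reduces biliverdin and flavins in the cytosol. The WT cardiomyocyte arrays gave log2 intensities of 8.12, 7.76 and 7.79, and the KD arrays 8.17, 8.45 and 8.52. The groups did not overlap, though KD 1 was only just above WT 1. The means were 8.38 ± 0.19 and 7.89 ± 0.19 (SD, n = 3 each). The difference was 0.49 (SE 0.15, 95% confidence interval 0.17 to 0.81), with an unadjusted limma p of 0.00545 and an adjusted p of 1. Leaving out 1 array gave 0.42 to 0.60. In hearts, the same gene differed by 0.03 (SE 0.18), at 8.26 and 8.63 in WT against 8.33 and 8.63 in KD.

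Gsr encodes glutathione reductase, the NADPH-dependent enzyme at the base of the glutathione system. It was measured at 8.45, 8.34 and 8.55 in WT cardiomyocytes against 7.95, 8.34 and 7.95 in KD. KD 1 and KD 3 lay below all WT arrays, and KD 2 lay just below the lowest, WT 2, level with it to the second decimal. The KD mean was 8.08 ± 0.22 and the WT mean 8.45 ± 0.11 (SD, n = 3 each). The difference was -0.37 (SE 0.12, interval -0.63 to -0.11; unadjusted limma p 0.009), and -0.50 to -0.30 with 1 array left out. The hearts gave 8.76 and 8.82 in WT against 8.64 and 8.57 in KD, a difference of -0.19 (SE 0.15, interval -0.50 to 0.13; unadjusted limma p 0.221), with the KD pair below the WT pair.

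Cyba encodes p22phox, the membrane partner that Nox4 and Cybb both need. In cardiomyocytes it was 9.36, 8.83 and 8.56 in WT against 9.52, 9.41 and 9.11 in KD. The groups overlapped, since WT 1 lay above KD 3. The difference was 0.43 (SE 0.17, interval 0.06 to 0.80; unadjusted limma p 0.0269), between 9.35 ± 0.22 and 8.92 ± 0.41 (SD, n = 3 each). Leaving out WT replicate 1 gave 0.65 and leaving out WT replicate 3 gave 0.25, so the size rested on which WT array was kept. The differences of its partners Nox4 and Cybb both lay below 0 in the same arrays, but each rested on 1 array. Nox4 was at -0.0053 without KD replicate 1 and Cybb at 0.0008 without WT replicate 3. Neither gene is shown to lie above background there.

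Gss encodes glutathione synthetase, the second step of glutathione synthesis. Its values were 6.87, 6.68 and 6.58 in WT cardiomyocytes against 7.23, 6.94 and 6.80 in KD. WT 1 lay above KD 3, so the groups overlapped, and KD 1 was the highest of the 6. The difference was 0.28 (SE 0.12, interval 0.02 to 0.55; unadjusted limma p 0.0388) and 0.16 without KD replicate 1, between 6.99 ± 0.22 and 6.71 ± 0.15 (SD, n = 3 each). The enzymes of the first step, the ligase subunits Gclc and Gclm, lay at -0.09 (SE 0.10) and -0.11 (SE 0.10), on the other side of 0.

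**Figure D3:**
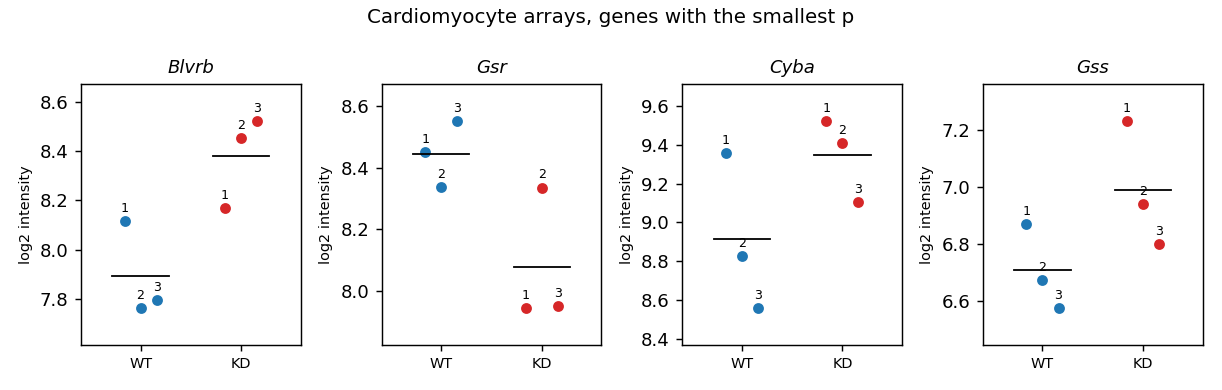
Log2 intensity (y axis) of Blvrb, Gsr, Cyba and Gss in the cardiomyocyte arrays, with WT and KD on the x axis. Each point is an array, numbered by replicate, and the bar is the group mean. The KD arrays of Blvrb lay above all WT arrays, from 8.17 to 8.52 against 7.76 to 8.12, while the groups of Cyba and Gss overlapped.

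Cybb showed the widest spread of any member in cardiomyocytes, with a pooled SD of 0.42. It was measured at 4.61, 4.60 and 5.64 in WT against 4.60, 4.67 and 4.56 in KD. WT 3 alone was high, and the other 5 arrays lay close together. The difference of -0.34 (SE 0.24, interval -0.86 to 0.18; unadjusted limma p 0.177) therefore became 0.0008 without WT replicate 3 and -0.52 without WT replicate 2. The macrophage markers also had their highest median among the cardiomyocyte arrays in WT 3. It lay 0.28 above their WT mean, against -0.23 to -0.09 in the other WT arrays and -0.35 to -0.22 in KD. C1qc and Fcgr1 were not highest in WT 3. The 6 neutrophil markers stood at 0.02 in WT 3, within the range of -0.15 to 0.16 in the other cardiomyocyte arrays. Of the 11 macrophage markers all were lower in the KD mean, and their part in the Cybb difference was not tested.

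**Figure D4:**
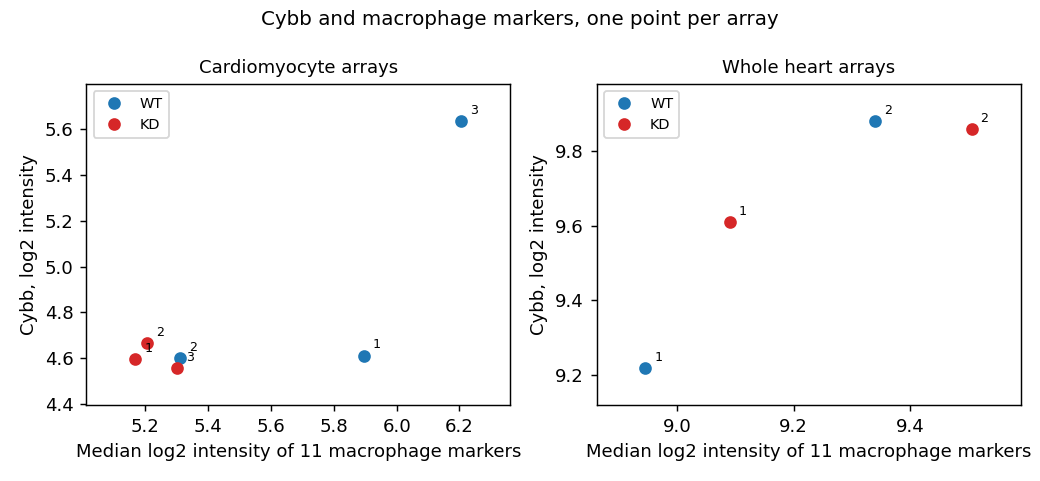
Log2 intensity of Cybb (y axis) against the median log2 intensity of 11 macrophage markers (x axis), with a point for each array, numbered by replicate, for cardiomyocytes on the left and whole hearts on the right. In cardiomyocytes WT 3 lay highest on both axes, at 5.64 for Cybb, and the other 5 arrays lay between 4.56 and 4.67. The axes of the panels differ in range.

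The superoxide dismutases had differences near 0 in cardiomyocytes. Sod2 was 12.60, 12.63 and 12.72 in WT against 12.70, 12.66 and 12.67 in KD, with the KD arrays inside the WT range and a difference of 0.03 (SE 0.08, interval -0.15 to 0.20). Sod1, with the smallest p of the 3, differed by 0.04 (SE 0.08, interval -0.15 to 0.22; unadjusted limma p 0.675), and turned to -0.01 without KD replicate 2. Sod3, the secreted dismutase, differed by -0.07 (SE 0.19).

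The peroxide-removing enzymes were 6 above 0 and 4 below, with a median of 0.10. Cat was 11.62, 11.62 and 11.75 in WT against 11.66, 11.62 and 11.68 in KD, a difference of -0.01 (SE 0.09, interval -0.21 to 0.20). Prdx3 was 10.75, 10.72 and 10.86 in WT against 10.76, 10.73 and 10.82 in KD, and it too differed by -0.01 (SE 0.09, interval -0.20 to 0.18). In both genes the KD arrays lay inside the WT range.

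Gpx1, the cytosolic glutathione peroxidase, was 8.64, 8.18 and 8.33 in WT against 8.46, 8.52 and 8.73 in KD, a difference of 0.19 (SE 0.21), with WT 1 inside the KD range. The smallest p among these enzymes belonged to Prdx4, at 5.84, 5.72 and 5.63 in WT against 6.07, 5.79 and 5.85 in KD. That difference was 0.17 (SE 0.11, interval -0.05 to 0.40; unadjusted limma p 0.124), and 0.09 without KD replicate 1. Gpx7, a peroxidase of the endoplasmic reticulum like Gpx8, was 5.32, 5.65 and 5.70 in WT against 5.62, 5.74 and 5.82 in KD, with WT 1 lowest. Its difference of 0.17 (SE 0.12, interval -0.08 to 0.42; unadjusted limma p 0.166) became 0.05 without WT replicate 1.

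All 5 members of the thioredoxin system lay above 0 in cardiomyocytes, by 0.0020 to 0.12, each with an interval that held 0. Txnrd2, the mitochondrial thioredoxin reductase, was 7.30, 7.18 and 7.23 in WT against 7.55, 7.20 and 7.32 in KD. KD 1 alone was high, and the difference of 0.12 (SE 0.13, interval -0.16 to 0.40; unadjusted limma p 0.383) became 0.02 without it. The 3 genes of the Nrf2 axis also lay above 0, with Nfe2l2 at 0.10 (SE 0.11, interval -0.13 to 0.34; unadjusted limma p 0.359; 0.04 without KD replicate 1), Keap1 at 0.07 and the target gene Nqo1 at 0.02. The remaining glutathione genes lay between -0.18 (Glrx, SE 0.19) and 0.14 (Glrx5, SE 0.13), with 7 of the 11 genes of that system below 0.

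The spread within a group also varied among members. Nfe2l2 was 9.39, 9.40 and 9.39 in WT cardiomyocytes against 9.62, 9.35 and 9.53 in KD, and Keap1 was 7.46, 7.46 and 7.44 against 7.75, 7.51 and 7.32. For both, the WT arrays lay close together and inside the KD range. Glrx was 9.06, 8.82 and 8.58 in WT against 8.68, 8.17 and 9.06 in KD, with a KD SD of 0.44 and a WT SD of 0.24. Whether the spread differed between genotypes was not tested.

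In the heme system, Hmox1, the inducible heme oxygenase, was 6.33, 6.38 and 6.55 in WT cardiomyocytes against 6.43, 6.50 and 6.26 in KD. The groups overlapped throughout, with a difference of -0.02 (SE 0.14, interval -0.32 to 0.27). Blvra was 6.64, 6.55 and 6.38 in WT against 6.76, 6.64 and 6.60 in KD, a difference of 0.14 (SE 0.11, interval -0.09 to 0.37; unadjusted limma p 0.199) that became 0.07 without WT replicate 3. Nox4 was 4.38, 4.55 and 4.36 in WT against 4.19, 4.51 and 4.34 in KD, a difference of -0.08 (SE 0.13, interval -0.37 to 0.21). Its arrays overlapped as well.

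In whole hearts, none of the members passed the test either. The smallest p belonged to Sod2, the mitochondrial superoxide dismutase, whose mean was 1.20-fold lower in KD, followed by the peroxide-removing genes Prdx1, Gpx8 and Prdx3, at 1.26-fold, 1.24-fold and 1.18-fold lower. Limma called 0 of 39 members at an adjusted p under 0.05, as it called 0% of all genes, and the lowest adjusted p was 0.95. Below an unadjusted p of 0.05 lay 4 members lower (2.49% of all genes) and 0 higher (2.44%). The KD and WT arrays did not overlap in 28.2% of members (10 lower and 1 higher), against 29.6% of all genes (15.4% lower and 14.2% higher), so this share was close to the background. The median interval of a member reached 0.32 to either side, or 1.25-fold.

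Of the 39 members, 26 lay below 0 in KD hearts (47.5% of all genes) and 13 above (52.5%), with a median of -0.03 against 0.01 over all genes. This split depended on the scaling. Quantile normalization left 20 above 0, and removal of a trend of the difference on intensity, which was -0.06 at the median member, left 23. It was 22 above 0 without KD replicate 1, 11 without KD replicate 2 and 8 without WT replicate 1. Cell type markers lay off 0 too, in the deposited values, with 0 called by limma. Below 0 lay 10 of 10 cardiomyocyte markers (median -0.11), 8 of 8 fibroblast (-0.28), 8 of 8 endothelial (-0.21) and 6 of 7 smooth muscle and pericyte markers (-0.19). So did 5 of 5 adipocyte (-0.20) and 5 of 5 atrial markers (-0.79). Above 0 lay both measured red cell markers, of 8 listed (0.66), 7 of 7 thymocyte (1.71) and 5 of 5 T cell markers (1.21). The T cell value rested on KD heart 1, with a median of 2.48 relative to the WT mean there and of -0.06 in KD heart 2. Macrophage (7 of 11 above 0, median 0.02), neutrophil (4 of 6, 0.02) and lung epithelium markers (3 of 4, 0.04) were mixed. Their part in the members' differences was not tested.

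Sod2 was 12.56 and 12.42 in WT hearts against 12.26 and 12.19 in KD, so that the KD pair lay entirely below the WT pair. The means were 12.23 ± 0.05 and 12.49 ± 0.10 (SD, n = 2 each). The difference was -0.26 (SE 0.10, interval -0.48 to -0.05), with an unadjusted limma p of 0.0207 and an adjusted p of 0.95. It stayed between -0.33 and -0.19 with 1 array left out and was -0.15 after quantile normalization and -0.13 with the intensity trend removed.

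Prdx3, which removes peroxide in the same compartment, was 12.55 and 12.57 in WT hearts against 12.26 and 12.40 in KD, again with no overlap. The means were 12.33 ± 0.10 and 12.56 ± 0.01 (SD, n = 2 each), and the difference was -0.24 (SE 0.11, interval -0.47 to -0.0037; unadjusted limma p 0.047). Quantile normalization gave -0.12 and removal of the intensity trend -0.10. The thioredoxin and reductase of mitochondria, Txn2 and Txnrd2, lay at -0.09 (SE 0.13) and -0.03 (SE 0.16). Txnrd2 was 8.40 and 8.52 in WT hearts against 8.21 and 8.65 in KD, with the KD arrays on either side of the WT pair.

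Prdx1 was 10.38 and 10.08 in WT hearts against 10.01 and 9.78 in KD. The arrays did not overlap, though KD 1 and WT 2 were close. The difference was -0.34 (SE 0.14, interval -0.64 to -0.04; unadjusted limma p 0.031), between 9.89 ± 0.17 and 10.23 ± 0.22 (SD, n = 2 each), and leaving out WT replicate 1 or KD replicate 2 gave -0.18 or -0.22. The kept probe set of Prdx1 is listed among probe sets of another chromosome than the gene's, so signal of a near-identical copy cannot be separated. The other probe set of Prdx1 gave -0.28 in hearts and 0.08 in cardiomyocytes. The same holds for Prdx2, whose kept and other probe sets gave -0.11 and -0.15 in hearts.

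Gpx8, a peroxidase of the endoplasmic reticulum, was 9.41 and 9.35 in WT hearts against 9.14 and 9.01 in KD. The KD pair lay below the WT pair, by a difference of -0.31 (SE 0.13, interval -0.59 to -0.02; unadjusted limma p 0.0386), between 9.07 ± 0.09 and 9.38 ± 0.04 (SD, n = 2 each). With KD replicate 1, the array of the thymocyte signal, left out, the differences were -0.30 for Sod2, -0.45 for Prdx1, -0.37 for Gpx8 and -0.17 for Prdx3. With KD replicate 2, the array low in atrial markers, left out instead, they were -0.23 for Sod2, -0.22 for Prdx1, -0.24 for Gpx8 and -0.31 for Prdx3. Of the 10 measured peroxide genes 8 lay below 0 (47.5% of all genes), and 6 of these had non-overlapping arrays (15.4% of all genes): Prdx1, Prdx2, Prdx3, Prdx4, Gpx4 and Gpx8. The signs carry the same dependence on scaling as those of all members, and the lack of overlap depended on it too. After quantile normalization the arrays of Prdx2, Prdx4 and Gpx4 overlapped. Those of Prdx1 stayed apart by little, with WT 2 at 9.7381 and KD 1 at 9.7378.

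Gpx1 lay the other way, at 9.01 and 9.72 in WT hearts against 9.55 and 10.28 in KD. The groups overlapped, and replicate 2 lay above replicate 1 in both genotypes. The difference was 0.55 (SE 0.25, interval -0.0016 to 1.09; unadjusted limma p 0.0506), between 9.91 ± 0.52 and 9.37 ± 0.50 (SD, n = 2 each), and it ran from 0.18 without KD replicate 2 to 0.91 without KD replicate 1. The red cell markers Alas2 and Slc4a1 had a median of -0.26 and 0.26 relative to their WT mean in WT hearts and of 0.61 and 0.71 in KD, and Alas2 itself was 11.26 and 11.97 in WT against 12.24 and 12.51 in KD. As with Gpx1, WT 1 was lowest and KD 2 highest for the median of these markers, and their part in the Gpx1 difference was not tested.

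A gap between replicates 1 and 2 of more than 0.3 in both genotypes, with replicate 2 higher, was found in 5 of the 39 members: Sod3, Gpx1, Gpx3, Glrx2 and Blvrb. That is 12.8%, against 2.56% of all genes. Gpx3, the plasma glutathione peroxidase, was 10.67 and 11.53 in WT hearts against 10.64 and 11.51 in KD, so the replicates differed far more than the genotypes (-0.02, SE 0.28). Glrx2, the mitochondrial glutaredoxin, was 11.59 and 12.04 in WT against 11.56 and 12.03 in KD. Sod3 was 8.29 and 8.63 in WT against 8.14 and 9.12 in KD, a difference of 0.17 (SE 0.23).

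**Figure D5:**
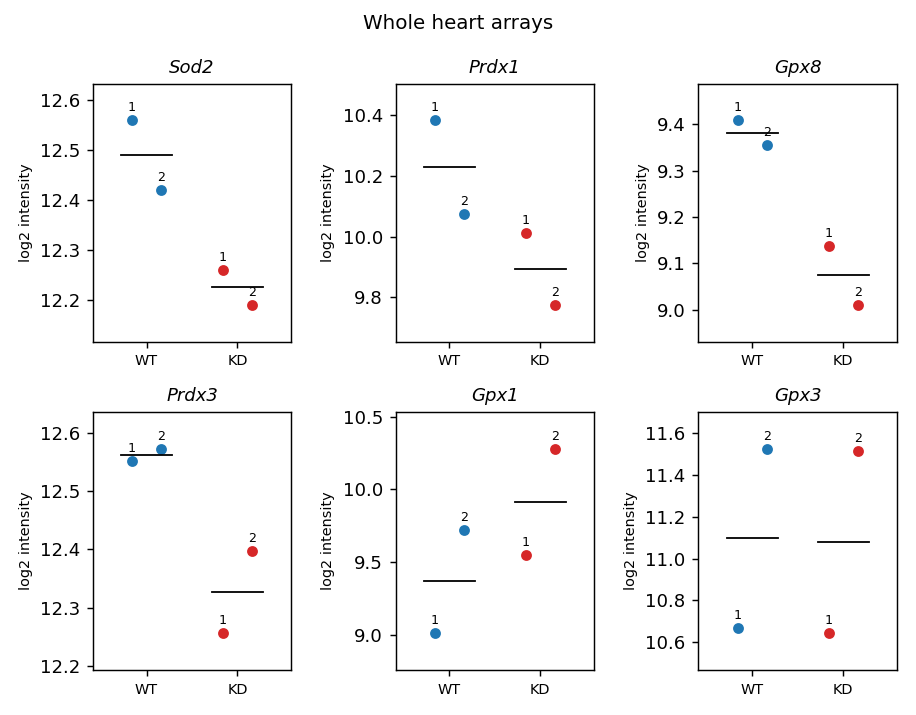
Log2 intensity (y axis) of 6 genes in the whole heart arrays, with WT and KD on the x axis. Each point is an array, numbered by replicate, and the bar is the group mean. In Sod2, Prdx1, Gpx8 and Prdx3 the KD pair lay below the WT pair, while for Gpx1 and Gpx3 replicate 2 lay above replicate 1 in each genotype.

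Among the remaining heart values, Nqo1 was 8.85 and 8.48 in WT against 8.49 and 8.41 in KD, a difference of -0.22 (SE 0.16, interval -0.57 to 0.14; unadjusted limma p 0.207). WT 1 alone was high, and the difference without it was -0.03. Mgst1, a membrane-bound glutathione transferase, was 9.19 and 9.03 in WT against 8.75 and 9.001 in KD, a difference of -0.24 (SE 0.19, interval -0.64 to 0.17; unadjusted limma p 0.229) that became -0.11 without KD replicate 1. The factor Nfe2l2 lay at -0.07 (SE 0.13) and Keap1 at -0.04 (SE 0.14), so all 3 genes of the Nrf2 axis were below 0 in hearts and above 0 in cardiomyocytes, within their errors in both.

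The glutathione genes of hearts lay 4 above 0 and 7 below. In Gss, Gsr and Mgst1 the KD pair lay below the WT pair, with Gss at 7.73 and 7.84 in WT against 7.71 and 7.70 in KD (-0.08, SE 0.15). After quantile normalization the arrays of Mgst1 overlapped. The ligase subunits Gclc and Gclm differed by -0.03 (SE 0.12) and 0.04 (SE 0.13). The glutathione transferases Gsta4 and Gstm1 differed by -0.11 (SE 0.13) and 0.08 (SE 0.19). Cytosolic Sod1 differed by 0.05 (SE 0.10), Txn1 by -0.01 (SE 0.13) and Hmox2, the constitutive heme oxygenase, by -0.03 (SE 0.12). Txnrd1, the cytosolic thioredoxin reductase, was 9.05 and 8.45 in WT against 8.76 and 8.64 in KD, with the KD pair inside the WT pair.

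Catalase had a difference near 0 in hearts, at 10.02 and 10.25 in WT against 10.21 and 10.19 in KD (0.06, SE 0.11, interval -0.18 to 0.31). Txn2 had the smallest p of the thioredoxin system (-0.09, interval -0.36 to 0.19; unadjusted limma p 0.496), and its sign turned after quantile normalization (0.04). Blvra, with the smallest p of the heme genes, was 9.85 and 9.88 in WT against 9.71 and 9.90 in KD, a difference of -0.06 (SE 0.13, interval -0.34 to 0.22; unadjusted limma p 0.642) that turned to 0.03 without KD replicate 1. Hmox1 was 7.81 and 8.02 in WT against 7.69 and 8.20 in KD, with the WT pair inside the KD pair and a difference of 0.03 (SE 0.17).

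Of the oxidase subunits, Cyba was 9.44 and 9.40 in WT hearts against 9.60 and 9.61 in KD. In the deposited values it was the 1 member with both KD arrays above both WT arrays, by 0.18 (SE 0.21, interval -0.28 to 0.64; unadjusted limma p 0.409). After quantile normalization this was so for Sod1 and Cat as well. Nox4 was 7.77 and 7.71 in WT against 7.38 and 7.90 in KD, a difference of -0.10 (SE 0.16), with the KD arrays on either side of the WT pair. Cybb was 9.22 and 9.88 in WT against 9.61 and 9.86 in KD, a difference of 0.18 (SE 0.29) that turned to -0.15 without WT replicate 1. The macrophage markers, too, were lowest in WT 1, at a median of -0.12 relative to their WT mean, with 0.12, -0.04 and 0.11 in the other hearts.

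Whether the knockdown went with another difference in hearts than in cardiomyocytes was tested directly. Limma called 0 of 39 members for this difference between the effects, as it called 0% of all genes, and the lowest adjusted p was 0.999. Below an unadjusted p of 0.05 lay 3 members with a lower value in hearts (1.74% of all genes) and 0 with a higher one (1.76%). They were Gpx8 at -0.42 (SE 0.17, limma p 0.0294), Prdx1 at -0.42 (SE 0.18, limma p 0.037) and Sod2 at -0.29 (SE 0.13, limma p 0.0418). For Blvrb, the value was -0.46 (SE 0.23, interval -0.96 to 0.05; unadjusted limma p 0.0709). By sign alone, 18 members lay above 0 in cardiomyocytes and below 0 in hearts, 7 the reverse, 6 above 0 in both and 8 below in both. The difference of the effects lay above 0 in 33.3% of members, against 51.2% of all genes. Its median over members was -0.09. That median became -0.010 after quantile normalization and -0.0057 with the intensity trend removed, so it depended on the scaling. The median interval of this difference reached 0.41 to either side, or 1.33-fold.

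A further 72 genes of the same pathways, of which 69 were measured, were tested in the same fit. In cardiomyocytes 44 lay above 0 and 25 below (median 0.02), and in hearts 25 above and 44 below (median -0.04), with 0 called by limma in both. At an unadjusted p under 0.05 there was 1 higher (0.988% of all genes) and 0 lower (1.11%) in cardiomyocytes, and 2 higher (2.44%) and 5 lower (2.49%) in hearts. Without KD heart 1, 41 of the 69 lay above 0 in hearts and 28 below, so that split changed without that array.

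The smallest p in cardiomyocytes was that of Glo1, which clears methylglyoxal with glutathione. It was 10.01, 10.15 and 9.52 in WT against 10.18, 10.26 and 10.47 in KD, with no overlap between the groups and a difference of 0.41 (SE 0.16; unadjusted limma p 0.0197). WT 3 was lowest by a wide margin, and the difference without it was 0.23. Osgin1, an Nrf2 target, was 6.93, 6.91 and 6.76 in WT against 7.04, 7.17 and 7.06 in KD, also with no overlap, a difference of 0.22 (SE 0.10; unadjusted limma p 0.0516). In hearts Glo1 lay below 0, at -0.32 (SE 0.19), and the difference between the effects was -0.73 (SE 0.25; unadjusted limma p 0.011), the smallest p of the 69 genes in that test.

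In hearts, Slc7a11, the cystine carrier that feeds glutathione synthesis, was 5.33 and 5.33 in WT against 7.90 and 5.55 in KD. KD 1, the array with the thymocyte signal, was high alone, and the difference of 1.40 (SE 0.48; unadjusted limma p 0.0124) became 0.22 without it. Rac2, a small GTPase that activates the phagocyte oxidase and is known from blood cells, was 8.70 and 9.002 in WT against 9.94 and 8.96 in KD. It showed the same array high, with a difference of 0.60 (SE 0.25; unadjusted limma p 0.0319) and of 0.11 without KD 1. Sesn1, a stress-induced sestrin, was 8.95 and 9.08 in WT against 8.73 and 8.61 in KD, a difference of -0.35 (SE 0.13; unadjusted limma p 0.0207), with the KD pair below the WT pair.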

How the data were processed

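Biotin-labelled cDNA was hybridised to Affymetrix arrays, per the labels' protocols. The authors deposited log2 intensities for 35556 probe sets. RMA, which corrects background, normalizes arrays and summarises probes, and Partek were used, per the submitters' processing notes, with versions and settings not given in the sources used here. Differences of dim probe sets are compressed by RMA. Array medians differed by kind of sample, so cardiomyocytes and hearts were compared after quantile normalization of the 10 arrays. No detection calls, scanner values or genome build were used here.

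The platform annotation gave 1 symbol for 21789 probe sets, several for 1621, which were left out, and no listing for 12146. Where a gene had more than 1 probe set (999 genes), the brightest was kept. Columns that matched no sample numbered 0. The fit of the 10 arrays used limma 3.58.1 (R 4.3.3), 4 group means and an intensity trend (6 residual and 6.81 prior degrees of freedom), two-sided, with Benjamini-Hochberg adjustment over 19938 genes at 0.05, and without a filter on dim genes. The code was tested on simulated data. Values are means ± SD of log2 intensity, and the number of arrays limits their precision.

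The members and lists were chosen with earlier results of these data known. Full statistics are given for the 8 members with the smallest p in each KD contrast and the smallest in each system, every array value for Sod2, Cat, Gpx1, Prdx3, Txnrd2, Nox4, Cybb and Hmox1, and up to 3 other pathway genes per contrast. Other members named were taken as examples of their system after their values were seen. Alternatives were other scalings, filters, probe set rules and model settings, a replicate block, and leaving out each array.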

Additional observations from a re-analysis of the deposited data

How the results depend on the processing

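Leaving out each cardiomyocyte array in turn, and every other alternative run, left 0 genes called between KD and WT cardiomyocytes, with 21 to 28 members above 0 and a median of 0.016 to 0.071. Each member difference there stayed within 1 SD of the reported value, though 16 of 39 turned sign at least once. In hearts 25 of 39 turned sign at least once. The members above 0 numbered 20 after quantile normalization, 23 with the intensity trend removed and 8 to 22 with 1 array left out, and their median ran from -0.12 to 0.024 with 1 array left out. Genes called in hearts over all genes were 0 to 303 with 1 array left out (2 without WT heart 1, 1 without KD heart 1, 303 without KD heart 2), where the lone array left in a group was taken to vary as the others do. For the difference of the KD effects they were 0 to 237 (2 without WT heart 1, 237 without KD heart 2), and the members' median ran from -0.20 to -0.019. The cause was not tested. With all arrays kept, the members' median difference of the effects was -0.010 after quantile normalization and -0.0057 with the intensity trend removed.

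With the replicate number as a block, 1 gene was called in hearts and 0 in cardiomyocytes. Same-numbered arrays deviated together at r = 0.15, 0.13 and -0.05 in cardiomyocytes and 0.23 in hearts. Differently numbered cardiomyocyte arrays gave -0.19 to 0.07. Whether the cardiomyocyte numbers mark a shared source is not settled by these values. Over the 39 members alone the heart value was 0.67, and whether heart numbers mark a shared source is not settled with 2 arrays a group. The block changed no call of a member.

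Between cardiomyocytes and hearts, the deposited values gave 8 members called higher and 25 lower in cardiomyocytes, and subtraction of array medians gave 6 lower. Among members called after quantile normalization, the sign turned in the deposited values for Gpx8 (-0.059), Prdx2 (-0.046), Txn2 (-0.17), Gss (-0.89), Gsr (-0.43), Keap1 (-0.46) and Blvrb (-0.33). Among those not called, it turned for Srxn1 (-0.96) and Cyba (-0.38). After subtraction of array medians it turned for Sod1 (0.52), Gpx1 (0.17), Gpx3 (0.32), Gclc (0.19), Glrx2 (0.082), Gsta4 (0.22) and Nfe2l2 (0.37), all called, and for Txnrd1 (0.28), Txnrd2 (0.19) and Mgst1 (0.54), which were not. With the mean of probe sets it turned for Prdx2 (-0.057). These are shifts of a whole array in part, since all genes moved by a median of -1.21 in the deposited values.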
